A study of Mus musculus with 6 samples.

Results

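The genes of retinoid metabolism and binding described here were Rbp4, Stra6, Rdh10, Aldh1a1, Aldh1a2, Aldh1a3, Crabp1, Crabp2 and Cyp26b1. They were chosen by name, and every probe set annotated to exactly 1 of them was taken, which gave 12 probe sets of 9 genes among 34945 probe sets that name 1 gene and 18191 genes tested. All 12 entered the test, with no filter on low values. The arrays measured lumbar dorsal root ganglia (DRG), where the somata of sensory neurons sit among satellite glia, and lumbar spinal cord (SC) of C57BL/6J males at 3 months of age. Each tissue had 3 arrays, each with RNA pooled from 4 mice and from left and right sides, and the labels call the 3 pools of a tissue independent. No treatment is named. The sources used here do not say whether a DRG and an SC pool came from the same mice.

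Retinoids are vitamin A and its derivatives. Retinol travels in blood bound to its carrier Rbp4, enters cells through the membrane receptor Stra6, and is oxidised to retinal by enzymes such as Rdh10 and then to retinoic acid by the retinal dehydrogenases Aldh1a1, Aldh1a2 and Aldh1a3. Crabp1 and Crabp2 bind retinoic acid in the cell, Cyp26 enzymes degrade it, and the receptors of the Rar and Rxr families carry it to target genes. In the embryo this pathway patterns the spinal cord, and in the adult nervous system it is studied in nerve regeneration.

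Aldh1a1 was higher in SC, and Stra6 and Crabp2 were higher in DRG. Crabp1 was called higher in SC by a narrow margin. The other 8 probe sets, of Rbp4, Rdh10, Aldh1a2, Aldh1a3 and Cyp26b1, did not pass the test. A call means an adjusted p under 0.05 from limma, fitted on log2(signal + 16) over all 34938 probe sets that could be tested.

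The promoter windows of 3 genes are shown because Aldh1a1 had the largest difference of the dehydrogenases, while Rarb and Cyp26a1, known targets of retinoic acid, hold the receptor element in its textbook form and were not called. The sequences are RefSeq windows of assembly GRCm38.p6, from 250 bases before to 50 bases after a start site, read 5′ to 3′ on the gene's strand. Aldh1a1 has 2 such windows, and the one shown lies at chr19:20601718-20602017 on the plus strand. Rarb lies at chr14:16575427-16575726 on the minus strand and Cyp26a1 at chr19:37697558-37697857 on the plus strand. Capitals mark the hexamer AGGTCA or the variant AGTTCA, the variant GGTTCA or the variant GGGTCA on either strand, which were the letters searched for.
Aldh1a1: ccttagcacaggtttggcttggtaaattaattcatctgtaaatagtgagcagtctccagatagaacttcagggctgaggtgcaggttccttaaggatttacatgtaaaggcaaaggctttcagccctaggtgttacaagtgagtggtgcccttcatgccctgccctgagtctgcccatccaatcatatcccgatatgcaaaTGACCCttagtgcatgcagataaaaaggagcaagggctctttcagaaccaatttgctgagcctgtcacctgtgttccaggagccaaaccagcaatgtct
Rarb: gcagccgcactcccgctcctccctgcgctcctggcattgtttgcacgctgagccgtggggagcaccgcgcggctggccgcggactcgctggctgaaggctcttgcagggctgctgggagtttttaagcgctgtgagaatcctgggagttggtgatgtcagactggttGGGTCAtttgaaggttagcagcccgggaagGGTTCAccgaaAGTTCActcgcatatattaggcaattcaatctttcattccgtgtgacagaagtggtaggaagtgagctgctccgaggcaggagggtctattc
Cyp26a1: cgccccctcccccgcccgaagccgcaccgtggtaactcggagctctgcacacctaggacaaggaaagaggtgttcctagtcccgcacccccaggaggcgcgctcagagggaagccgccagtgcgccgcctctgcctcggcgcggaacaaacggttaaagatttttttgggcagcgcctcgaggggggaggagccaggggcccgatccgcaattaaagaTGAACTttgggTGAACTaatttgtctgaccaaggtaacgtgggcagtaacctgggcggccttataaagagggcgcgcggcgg
A direct repeat of these hexamers with a spacer of 5 bases stood in the windows of Rarb and Cyp26a1, and 0.0974% of all 32851 windows of this length hold one. Windows were found for 6 of the 9 retinoid genes, 11 in all, and not for Rdh10, Aldh1a3 and Crabp2. Of these 11, 3 windows held a single hexamer, 1 each of Aldh1a1, Rbp4 and Stra6, and 0 held a direct repeat with a spacer of 1, 2 or 5 bases. At least 1 hexamer is found in 43.7% of all windows.

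The tissue labels held on their defining markers. All 7 measured genes of sensory neurons were called higher in DRG, and all 8 astrocyte genes and all 7 oligodendrocyte genes were called higher in SC. The glial filament gene Gfap had a log2 difference (DRG minus SC) of -6.32 on its most different probe set, the oligodendrocyte factor Olig1 of -5.96, the neuronal chloride transporter Slc12a5 of -5.70, and Pirt, a membrane protein of sensory neurons, of 7.04. Between arrays of 1 tissue the Pearson correlation of log2 signals was 0.969 or more, and across tissues it was 0.884 to 0.891. Of all probe sets tested, 38.0% were called, 27.0% toward DRG and 11.1% toward SC. The split of calls moved with the array scaling. DRG had 70.9% of the calls with the scaling as deposited, 52.0% when arrays were quantile normalized and 42.2% when the authors' array scaling was undone. The median log2 difference of all probe sets was 0.12, 0.02 and -0.15 in the same order. Small differences therefore have no settled direction. Signals with the array scaling undone were already on a common scale. Their mean, trimmed by 2% at each end, was 247.3 to 247.5 on the 6 arrays. In tissue homogenates, fewer cells of a type and less RNA per cell cannot be told apart.

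Signals are in arbitrary units after the deposited array scaling, and levels of different probe sets are not set against each other. As a yardstick for weak signals, 55 probe sets of 42 genes not expected in either tissue, such as lens crystallins and testis protamines, were used. Their 95th percentile lay between 127 and 231 on the 6 arrays and is called the level of genes not expected. Their median signal lay between 23.8 and 34.1.

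**Figure D1:**
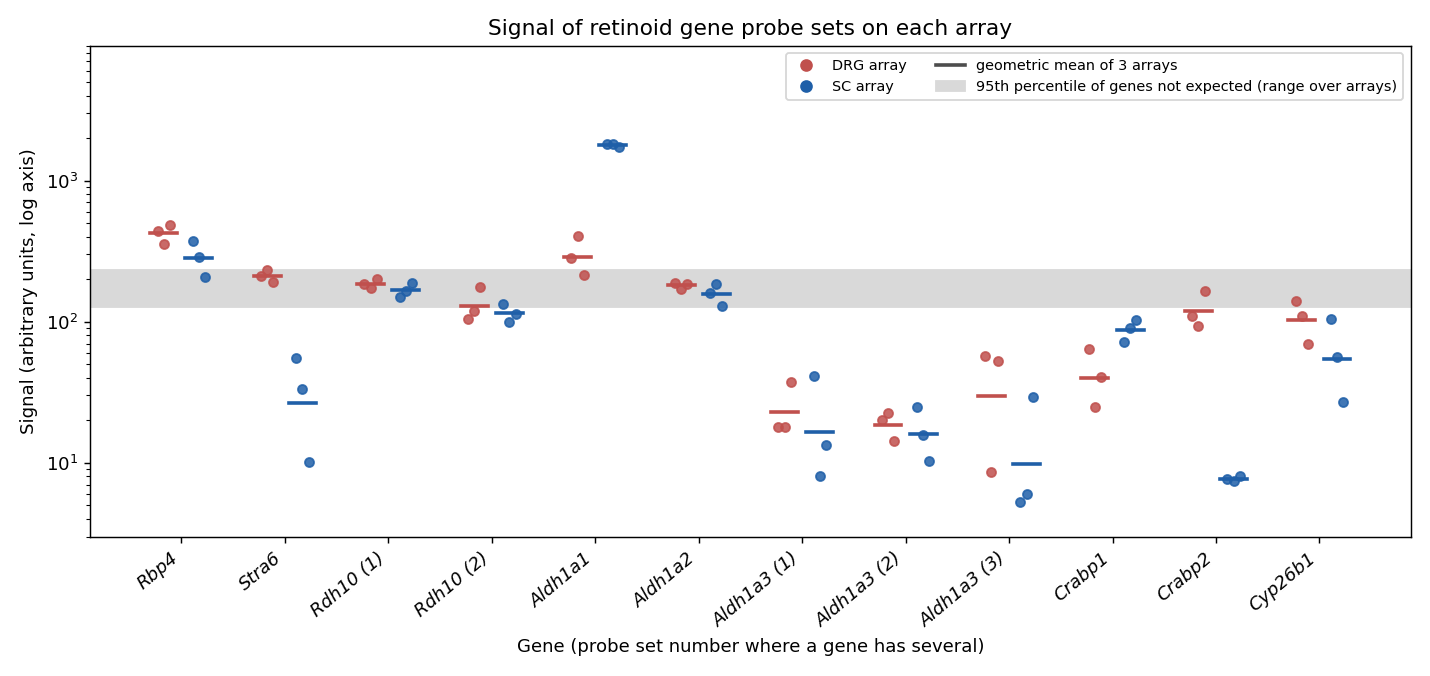
Signal of the 12 probe sets on each of the 6 arrays, on a log axis in arbitrary units, with DRG in red, SC in blue and a bar at the geometric mean of 3 arrays; the grey band spans the level of genes not expected over the arrays, 127 to 231. Aldh1a1 in SC stands at 1737 or more, Stra6 and Crabp2 are low in SC, and Aldh1a3 lies under the band in both tissues.

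The genes of retinol transport differed in how firmly they separated the tissues. Stra6, the membrane receptor that takes up retinol from its carrier, had signals of 211, 231 and 193 on the 3 DRG arrays and of 55.7, 33.4 and 10.2 on the 3 SC arrays. All DRG arrays lay above all SC arrays, and the SC values were the more scattered, at 33.1 ± 22.8 (SD, n = 3) against 212 ± 19.2 in DRG. The log2 difference was 2.33 with a standard error of 0.34 (limma adjusted p = 0.000488). In DRG, 2 of the 3 arrays exceeded the level of genes not expected and in SC 0 did. Set against the SC arrays' level, the fold is at least 1.38. That level was 158, 127 and 180 on the SC arrays. On the DRG arrays it was 205, 231 and 170, so Stra6 in DRG stood near the level of its own arrays. With a pseudocount of 64 the log2 difference was 1.53, still called.

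Rbp4, the plasma carrier of retinol, had signals of 438, 355 and 483 in DRG and of 375, 289 and 208 in SC. The tissues overlapped, since SC replicate 1 was above DRG replicate 2, and all 6 arrays were above the level of genes not expected. The log2 difference was 0.55 with a 95% interval from 0.11 to 1.00 and did not pass the test (limma adjusted p = 0.0531). It was 0.29 after quantile normalization (limma adjusted p = 0.314) and 0.20 before the array scaling (limma adjusted p = 0.450), and neither was called. It was called in 4 of 17 alternatives: without DRG replicate 2 (limma adjusted p = 0.0389), without SC replicate 1 (0.0125), among probe sets above the median signal (0.0244) and with 1 probe set per gene (0.0475).

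Rdh10, which oxidises retinol to retinal, showed no difference that passed the test on either of its 2 probe sets. In order of their identifiers, the first had signals of 184, 175 and 200.5 in DRG and of 150.2, 166 and 188 in SC. The second had 105, 118 and 175 in DRG, while SC had 134, 99.5 and 114. The arrays of both tissues overlapped on both probe sets. The level of genes not expected was exceeded on 1 DRG and 2 SC arrays by the first and on 1 DRG array by the second. The log2 differences were 0.14 (95% interval -0.18 to 0.46, limma adjusted p = 0.501) and 0.16 (-0.33 to 0.65, limma adjusted p = 0.634), in the same order. Before the array scaling both were below 0, at -0.20 and -0.17.

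Of the 3 retinal dehydrogenases, which make retinoic acid, Aldh1a1 alone was called. Its signals in DRG were 281, 402 and 214, and in SC they were 1819.7, 1816 and 1737. Every SC array lay more than 4-fold above the highest DRG array, and the SC arrays lay close together, with a coefficient of variation of 2.62% against 31.9% in DRG. The mean was 1791 ± 47.0 (SD, n = 3) in SC and 299 ± 95.3 in DRG, and the ratio of geometric means was 6.19. The log2 difference was -2.56 with a standard error of 0.18 (limma adjusted p = 4.15e-06). Both tissues were above the level of genes not expected on all arrays. By the size of its difference toward SC, Aldh1a1 ranked 247 among 34938 probe sets.

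Lists of astrocytes, oligodendrocytes and spinal neurons moved in the same direction as Aldh1a1, and 2 tissues cannot tell them apart. Their median log2 differences were -2.93, -3.74 and -4.38 in that order. Of the 28 probe sets of the 8 astrocyte genes, 25 were called higher in SC, with summed signals from 40645 to 42954 in SC and from 3074 to 3209 in DRG. Genes of oligodendrocytes were called higher in SC on 9 of 10 probe sets, and genes of spinal neurons on 12 of 16. The part of any of these cell types in the Aldh1a1 result was not tested. Aldh1a7, a close paralogue of Aldh1a1, went the other way, with signals of 112, 128 and 122.5 in DRG and of 47.3, 69.1 and 50.3 in SC. Its log2 difference was 0.94 (limma adjusted p = 0.00597), and none of its arrays exceeded the level of genes not expected. How far RNA of one paralogue binds the probes of the other was not tested.

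Aldh1a2, the dehydrogenase best known from the meninges and the embryonic trunk, had signals of 189, 169.6 and 185 in DRG and of 161, 185 and 129 in SC. The tissues overlapped, and the log2 difference was 0.19 with a 95% interval from -0.17 to 0.55 (limma adjusted p = 0.407). It was -0.15 before the array scaling. The signal exceeded the level of genes not expected on 1 DRG array and 2 SC arrays.

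Aldh1a3 was measured by 3 probe sets, taken in order of their identifiers, and all 18 of their values were under the level of genes not expected. The first ranged from 17.9 to 37.5 in DRG and from 8.07 to 41.0 in SC, and the second from 14.3 to 22.4 and from 10.4 to 24.8. The third had signals of 56.9, 8.67 and 52.3 in DRG and of 5.24, 6.05 and 29.4 in SC. DRG replicate 2 of this probe set stood among the SC values, and SC replicate 3 was the highest of its tissue. The log2 differences of the 3 probe sets were 0.20, 0.10 and 0.84, and none passed the test (limma adjusted p = 0.713, 0.793 and 0.195). Without DRG replicate 2 the third was called at 1.35 (limma adjusted p = 0.0226).

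The binding proteins of retinoic acid were called in opposite directions. Crabp2, which hands retinoic acid to its receptors in the nucleus, had signals of 109, 93.7 and 166 in DRG and of 7.63, 7.46 and 8.02 in SC. The tissues did not overlap, and the SC values, with a coefficient of variation of 3.74%, lay under the median of genes not expected on every array. The log2 difference was 2.52 with a standard error of 0.26 (limma adjusted p = 4.95e-05). Because no DRG array exceeded the level of genes not expected, no fold is given. The size depends on the pseudocount, with a log2 difference of 3.40 at a pseudocount of 4 and of 1.36 at 64.

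Crabp1, the other binding protein, had signals of 63.6, 24.8 and 40.3 in DRG and of 72.3, 89.7 and 102.6 in SC. The tissues did not overlap, but the gap between DRG replicate 1 and SC replicate 1 was small, and all 6 values were under the level of genes not expected. The log2 difference was -0.87 with a standard error of 0.29 (limma adjusted p = 0.0420). The call was not stable. It ended when any 1 array other than DRG replicate 1 was left out, with limma adjusted p values of 0.114 without DRG replicate 2, 0.0924 without DRG replicate 3, 0.0563 without SC replicate 1, 0.106 without SC replicate 2 and 0.130 without SC replicate 3. It also ended after quantile normalization (limma adjusted p = 0.0527) and on the logarithm of the deposited ratio (0.0570).

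Cyp26b1, which breaks retinoic acid down, did not pass the test. The DRG arrays had signals of 140.2, 110.4 and 69.5, and the SC arrays of 104, 56.7 and 26.8. The tissues overlapped, and the arrays of each tissue were spread widely, at 107 ± 35.5 (SD, n = 3) in DRG and 62.5 ± 38.8 in SC. The log2 difference was 0.73 with a 95% interval from -0.15 to 1.60 (limma adjusted p = 0.184), and it was called at 1.09 without SC replicate 1 (limma adjusted p = 0.0482). No array exceeded the level of genes not expected.

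**Figure D2:**
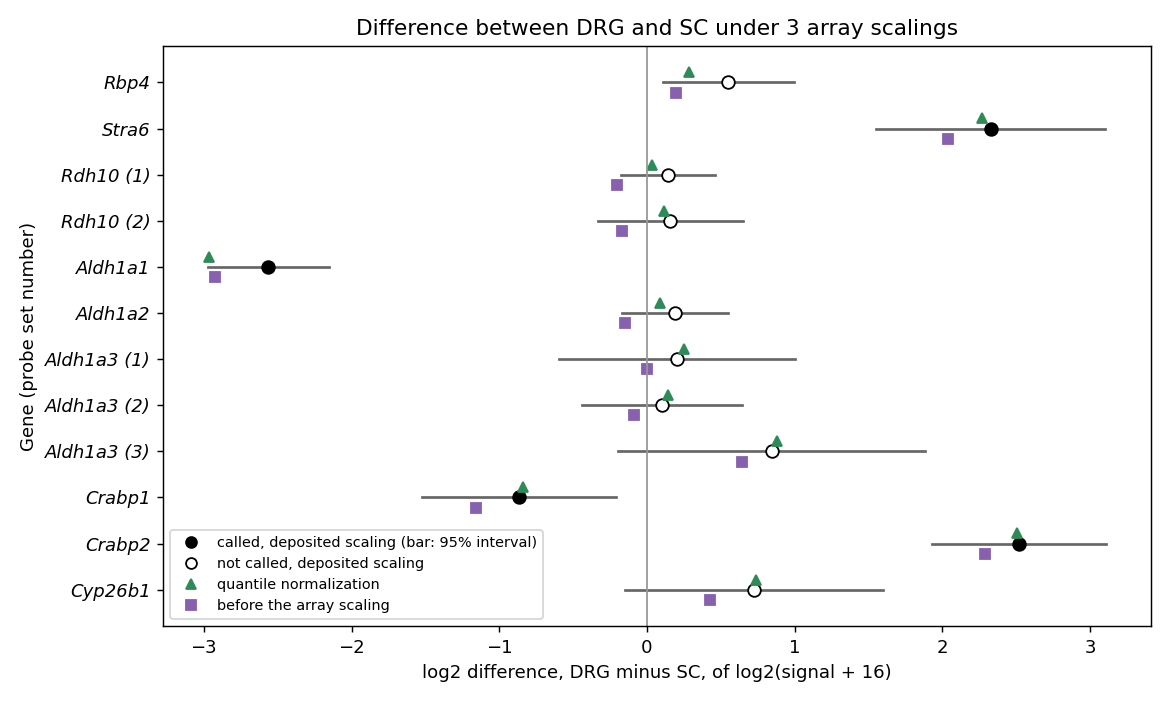
Log2 difference (DRG minus SC) of log2(signal + 16) for the 12 probe sets, with 95% intervals from limma on the deposited scaling, filled where called; triangles and squares give the value after quantile normalization and before the authors' array scaling. Aldh1a1 at -2.56, Crabp2 at 2.52 and Stra6 at 2.33 lie far from 0 under all 3 scalings, while both Rdh10 probe sets, Aldh1a2 and the second probe set of Aldh1a3 fall on the other side of 0 before the array scaling.

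Among the 12 probe sets, 4 were called, with 2 in each direction. This is 33.3%, near the 38.0% of all probe sets tested. The arrays of the tissues did not overlap for 4 of 12 probe sets, against 48.1% of all. The median log2 difference of the 12 was 0.20 as deposited, 0.20 when quantile normalized and -0.04 with the array scaling undone, beside 0.12, 0.02 and -0.15 for all probe sets. Single probe sets ranged from -2.56 to 2.52. At 2-fold, Stra6 and Crabp2 stood among the 9.92% of probe sets called higher in DRG by that margin, and Aldh1a1 among the 5.30% called higher in SC.

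Stra6 and Crabp2 were higher in DRG, and so were lists of several cell types, which 2 tissues cannot tell apart. The median log2 difference was 4.79 for sensory neurons, 1.32 for fibroblasts and meninges and 1.23 for satellite glia and Schwann cells. Of the 26 probe sets of 14 genes of fibroblasts and meninges, DRG was called higher on 18 and SC on 1, with summed signals from 31980.1 to 34551 in DRG and from 16136 to 19030.4 in SC. Dcn, a proteoglycan of connective tissue, differed by 3.45. Genes of satellite glia and Schwann cells were called higher in DRG on 5 of 8 probe sets and in SC on 1, with Fabp7 at 2.84, and genes of sensory neurons on 12 of 14. Genes of endothelium and mural cells split, 5 of 21 probe sets higher in DRG and 4 in SC, and the endothelial receptor Flt1 was at -1.26. Adipocyte genes, of a cell type that makes Rbp4, were called higher in DRG on 5 of 13 probe sets and in SC on 0. This is 38.5%, near the 38.0% of all probe sets, and the list's median log2 difference was 0.043. Quantile normalized, SC was called higher on 1, and before the array scaling on 2. Fabp4 was at 1.80 on its most different probe set, while Lipe stood at -0.61 and -0.24 and Lep at -0.45, not called. That probe set of Fabp4 exceeded the level of genes not expected on no array. Of the 13 adipocyte probe sets, 3 exceeded it on any array. The summed signals of the list ranged from 1287 to 1347 in DRG and from 611 to 860 in SC. The part of any of these cell types in the results for retinoid genes was not tested.

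Lists of cells that dissection can bring along held 1 to 3 calls each. These are 27.3% for skeletal muscle, 30% for ependyma and choroid plexus and 9.09% for blood and liver plasma. Of all probe sets, 38.0% were called. Genes of skeletal muscle were called higher in SC on 3 of 11 probe sets, with Mb at -1.25, and of ependyma and choroid plexus higher in DRG on 1 of 10, with Kcnj13 at 1.12, and higher in SC on 2. Among genes of blood and liver plasma, Alas2 was called higher in DRG at 1.73, the 1 call on 11 probe sets. The probe sets of Mb, Kcnj13 and Alas2 given here exceeded the level of genes not expected on no array. The summed signals of the muscle list ranged from 652 to 2154 in DRG and from 883 to 2663 in SC.

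Beyond the 9 genes, 52 other genes of the pathway were measured by 96 probe sets, with 31 calls toward DRG and 10 toward SC. This is 42.7%, beside 38.0% of all probe sets. Quantile normalized, the calls were 22 and 8, and with the array scaling undone 20 and 16, and the median log2 difference was 0.23, 0.12 and -0.07 in the same order. Of all 34938 probe sets, 6279 and 5800 were called when quantile normalized, and 5591 and 7657 with the array scaling undone. These totals are the background for the lists below as well.

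Among proteins that bind and store retinol or cleave carotenoids, few differences passed the test. Of 17 probe sets of 11 genes, DRG was called higher on 2 and SC on 1. This is 17.6%, beside 38.0% of all probe sets. Signals were weak, and 14 of the 17 exceeded the level of genes not expected on no array. The median log2 difference was 0.13, and -0.12 before the array scaling. Lrat, which esterifies retinol for storage, had signals of 55.6, 64.7 and 39.3 in DRG and of 10.4, 9.91 and 7.50 in SC on 1 probe set, with a log2 difference of 1.44 (limma adjusted p = 0.000942), while its other probe set did not differ beyond its spread, at 33.1 ± 10.1 and 33.1 ± 8.86 (SD, n = 3 each). The cellular binding protein Rbp2 had signals of 134, 14.6 and 101 in DRG and of 9.50, 13.8 and 12.6 in SC. DRG replicate 2 lay close to SC, and the call at 1.54 (limma adjusted p = 0.0440) was lost under 9 of 16 alternatives. Among these, the limma adjusted p was 0.995 on the logarithm of the deposited ratio and from 0.0507 to 0.145 otherwise. Neither gene exceeded the level of genes not expected. The 4 probe sets of Ttr, the plasma partner of Rbp4, were not called.

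Oxidoreductases of retinol and retinal were called higher in DRG where they were called. Of 26 probe sets of 18 genes, 8 were called toward DRG and 0 toward SC, and the median log2 difference was 0.26. These 8 are 30.8%, near the 27.0% of all probe sets called toward DRG. Quantile normalization left 5 and 0 calls. Undoing the array scaling gave 6 and 2 calls and a median of -0.07. Rdh11, a retinal reductase, had signals of 647, 517 and 759 in DRG and of 250.5, 295 and 219 in SC. Its tissues did not overlap, and its 2 probe sets differed by 1.27 (limma adjusted p = 0.000134) and 0.84 (0.000154). Both were called under all 3 scalings, whereas Dhrs3, which turns retinal back to retinol, was called at 0.55 on the deposited scaling (limma adjusted p = 0.0271) and not on the other 2.

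**Figure D3:**
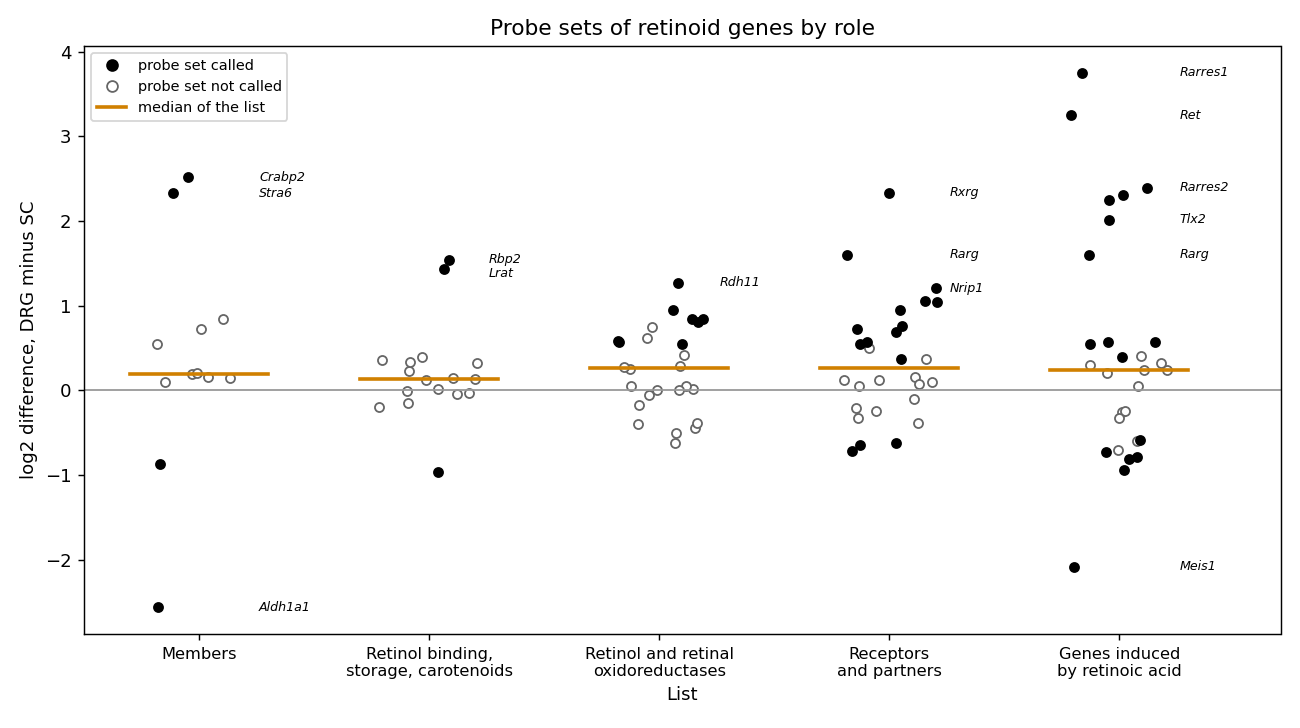
Log2 difference (DRG minus SC) of each probe set of the 9 retinoid genes and of 4 lists of related genes on the deposited scaling, filled where called, with the median of each list in orange and the names of genes called at an absolute difference of 1.1 or more. Medians lie between 0.13 and 0.26, while single genes reach 3.75 (Rarres1) and -2.56 (Aldh1a1).

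The receptors of retinoic acid did not move as a group. Rarg had signals of 498, 437 and 442 in DRG and of 153, 123 and 147 in SC on 1 probe set. All DRG arrays were above all SC arrays, and the DRG mean was at least 2.99-fold higher, with a log2 difference of 1.60 (limma adjusted p = 6.26e-06), while its other probe set was at -0.33 and not called (limma adjusted p = 0.465). Rxrg, a retinoid X receptor, had signals of 155, 121 and 155 in DRG and of 19.97, 13.7 and 13.6 in SC, with a log2 difference of 2.33 (limma adjusted p = 3.75e-05). No DRG array of Rxrg exceeded the level of genes not expected. Rxra was called higher in SC on 2 of 3 probe sets, at -0.65 and -0.71 (limma adjusted p = 0.0431 and 0.0265), and Rarb, Rara and Rxrb were not called.

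With their cofactors and carriers, 28 probe sets of 12 receptor genes and partners gave 12 calls toward DRG and 3 toward SC. The 15 called are 53.6%, beside 38.0% of all probe sets, of which 27.0% were called toward DRG and 11.1% toward SC. The list's calls became 8 and 3 under quantile normalization and 7 and 5 with the array scaling undone. Nrip1, a corepressor of nuclear receptors, was called higher in DRG on 5 of its 6 probe sets as deposited and quantile normalized, and on 3 before the array scaling. The sixth was not called as deposited, at -0.21, and before the array scaling it was called higher in SC at -0.55 (limma adjusted p = 0.0437). Its most different probe set, with 976, 918 and 935 in DRG against 381, 388 and 434 in SC, differed by 1.20 (limma adjusted p = 2.87e-06). Fabp5, which carries retinoic acid to another nuclear receptor, was called higher in DRG on both probe sets, at 0.57 and 0.69. Quantile normalized they stood at -0.022 and 0.087, and neither was called. Before the array scaling they stood at 0.20 and 0.32, and the second was called (limma adjusted p = 0.00248).

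Genes known to be induced by retinoic acid went both ways. Of 29 probe sets of 14 genes, DRG was called higher on 11, of 8 genes, and SC on 6, of 3 genes. The 17 called are 58.6%, beside 38.0% of all probe sets, of which 27.0% were called toward DRG and 11.1% toward SC. Rarg, Rarb, Dhrs3 and Cyp26a1 also stand in other lists of the pathway, so the calls of Rarg and Dhrs3 count in each. The calls were 8 and 4 under quantile normalization and 7 and 9 with the array scaling undone. Rarres1, a membrane protein named for its response to retinoids, had signals of 1165, 1042 and 1207 in DRG and of 76.1, 58.5 and 75.1 in SC. The tissues were far apart, the DRG mean at least 7.41-fold higher, with a log2 difference of 3.75 (limma adjusted p = 3.81e-08). Rarres2, which encodes the chemoattractant chemerin, had signals of 327, 289 and 297 in DRG and of 67.5, 66.6 and 16.6 in SC on its most different probe set. The DRG mean was at least 1.98-fold higher, with a log2 difference of 2.39 (limma adjusted p = 0.000383). Of its other probe sets, 1 was called at 2.30 and 1, at -0.70, was not (limma adjusted p = 0.0644). Ret, the receptor of the GDNF family and a gene of sensory neurons, differed by 3.25 and 2.25 on its 2 probe sets.

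The homeobox gene Meis1 was higher in SC, with signals of 17.3, 12.8 and 9.18 in DRG and of 91.3, 120.1 and 111 in SC. Its log2 difference was -2.09 (limma adjusted p = 9.56e-05), and no array exceeded the level of genes not expected. Of its other probe sets, 1 was called at -0.59 and 1, at 0.045, was not. Its relative Meis2 was called higher in SC on 3 of 4 probe sets. Rarb and Cyp26a1, whose windows hold the direct repeat printed above, were not called. Rarb had signals of 141, 128.5 and 125 in DRG and of 185.5, 169.7 and 127 in SC, and Cyp26a1 had 34.7, 67.7 and 70.4 in DRG, against 28.1, 82.8 and 19.96 in SC. The arrays of both genes overlapped between tissues, and the log2 differences were -0.25 (limma adjusted p = 0.322) and 0.41 (limma adjusted p = 0.490). Before the array scaling Rarb was called higher in SC at -0.58 (limma adjusted p = 0.0254).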

How the data were processed

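RNA of 6 pools was measured on 3' expression arrays. The submitters' processing notes name MAS5 without a version. The values the authors deposited are linear ratios: the median of a probe set's 6 values was 1 in 91.8% of probe sets, within 1e-05. The ratio was read from the values as a MAS5 signal divided by an array factor and by the probe set's median, since no source used here states the authors' steps. Signals were recovered with MAS5's step of 0.1 for 45094 of 45101 probe sets, and the array scaling of the deposited ratios was kept. On simulated probe sets, 98.5% were recovered exactly and 1.46% were off by a common whole factor.

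The platform annotation named 1 gene for 34945 probe sets, several for 932 and none for 9160, beside 64 controls. Those with 1 gene and a recovered signal, 34938, were tested with limma 3.58.1 in R 4.3.3 (lmFit, eBayes with an intensity trend, two-sided, Benjamini-Hochberg). The arrays' number limits the precision. An at-least fold sets the brighter tissue against the dimmer tissue, as means of log2 signals. Each dimmer array counts at its signal or at its own level of genes not expected, whichever is higher. The fold is given where all 3 dimmer arrays are at or under that level. Its size does not use the level of the brighter arrays. Lists are described by counts. Named were all 9 genes, at most 4 called pathway genes a list with 2-fold differences and no overlap, and the most different gene of each cell type list. Other pathway genes were picked after their values were seen. The members and lists were chosen with earlier results of these data known. The 17 alternatives were varied one at a time. Tables and plots used Python 3.11.15 (numpy 2.4.6, pandas 2.3.3) with matplotlib 3.10.9, and the recovery also numba 0.67.0.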

Additional observations from a re-analysis of the deposited data

How the results depend on the processing

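Aldh1a1, Crabp2 and Stra6 kept their direction and call under every alternative in which they could be tested (17, 16 and 16), with log2 differences from -2.96 to -2.36, from 1.36 to 3.57 and from 1.53 to 2.76. Crabp1 kept its direction under all 15 and lost its call under 8. Signals before the array scaling reversed probe sets that had not been called: Aldh1a2 to -0.15, the second of Aldh1a3 to -0.089 and Rdh10 to -0.20 and -0.17. Leaving out 1 array at a time gave -0.052 to 0.57 for the first probe set of Aldh1a3, -0.047 to 0.27 for the second and -0.038 to 0.29 for the second of Rdh10.

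The 2 retinoid probe sets called higher in SC became 1 on the logarithm of the deposited ratio, after quantile normalization and with the replicate block. Without _x_at, _s_at and _a_at probe sets the count was also 1, since the probe set of Crabp1 has such a suffix and was not tested there. Among probe sets above the median signal 1 was called in each direction, Aldh1a1 in SC and Rbp4 in DRG, since Stra6, Crabp1 and Crabp2 were not tested there and Rbp4 gained a call. Rbp4 was also called with 1 probe set per gene, which gave 3 higher in DRG. Crabp2 had a larger log2 difference than Stra6 as reported, but not with a pseudocount of 64, without DRG replicate 3 or without SC replicate 1. Leaving out 1 array at a time gave 2 to 4 higher in DRG and 1 to 2 higher in SC; the 4 came without DRG replicate 2 and without SC replicate 1. Other pathway probe sets, 31 and 10, became 20 and 16 before the array scaling, 18 and 5 with 1 probe set per gene and 16 and 4 with probe sets averaged by gene, and those higher in SC became 4 above the median signal, 5 without the suffixed probe sets and 3 to 7 with 1 array left out, where 24 to 31 were higher in DRG. Of all probe sets, 9420 were called higher in DRG and 3870 in SC. The calls became 6279 and 5800 after quantile normalization and 5591 and 7657 before the array scaling. With 1 probe set per gene they were 5955 and 1862, and with probe sets averaged 5021 and 2035. With 1 array left out the ranges were 8380 to 9357 and 3206 to 3659. Fewer features are tested above the median signal, with 1 probe set per gene, with probe sets averaged and without the suffixed probe sets. Leaving out 1 array keeps all probe sets and uses fewer arrays. Otherwise the cause was not tested.

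The replicate numbers in the labels were not taken as pairs in the main test. Correlations of deviations between equal numbers were -0.01, -0.03 and 0.01, which cannot show whether pools of 1 number shared mice. Not every sample correlated best with its own number. With the replicate number as a block, 9203 and 3726 probe sets were called, and Crabp1 was the 1 retinoid probe set to change its call (limma adjusted p = 0.0661). Signals near or under the level of genes not expected limit the results for Crabp1, Crabp2, Cyp26b1 and Aldh1a3, which exceeded it on 0 arrays, and for Rdh10, Aldh1a2 and Stra6, which exceeded it on some.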
